A study of Mus musculus with 2 samples.

Results

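Macrophages of epididymal fat were compared between 2 sets of hashtags, with 170 cells of A0301, A0302 and A0303 on one side and 1210 cells of A0304, A0305 and A0307 on the other. These 1380 cells were chosen from the 6910 cells of the 6 hashtags, and the series holds 11750 cells of 9 hashtags. A cell counted as a macrophage with at most 25% mitochondrial reads, with at least 3 of the 6 markers Adgre1, C1qa, C1qb, C1qc, Csf1r and Mrc1 at 50 CPM (counts of a gene per 1000000 reads of the cell), and with less than 300 CPM in sum of the fibroblast genes Lum and Dpt, the endothelial gene Cdh5 and the T cell gene Cd3g. Reads were summed over the macrophages of each hashtag, so that each hashtag gave 1 sample and each set 3.

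The cells came from wild-type C57BL/6J mice, all male, kept on standard diet (16 weeks) or on high-fat diet (8 weeks or 16 weeks). The stromal vascular fraction, the part of fat other than adipocytes, was freed with Liberase, an enzyme blend, labelled with hashtag antibodies that carry a DNA barcode, and pooled for 1 single-cell run (BD Rhapsody beads, TAS-Seq amplification). Which diet each hashtag stands for is not given in the sources used, so the sets are named by their tags alone. Nor is it stated whether a hashtag marks 1 animal, and p-values therefore measure only the spread between hashtags, which shared 1 run. Fewer cells of a kind and less RNA per cell cannot be told apart in the summed reads.

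Macrophages of fat take up lipid from adipocytes and clear dead cells. In obesity, many arise from blood monocytes, gather around dying adipocytes and turn on a programme of lipid uptake, lipid droplet and lysosome genes, and such cells are called lipid-associated macrophages. Resident macrophages are a longer-lived population, and freshly recruited cells still carry monocyte genes such as the chemokine receptor Ccr2. Lysosomes break down what a macrophage engulfs, in a lumen that a proton pump, the V-ATPase, keeps acidic.

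The hashtag calls were less clean in the set A0301–A0303. The hashtag with the most tag counts was the called one in 44 of 51, 47 of 52 and 55 of 67 macrophages of A0301, A0302 and A0303, and in 335 of 335, 414 of 414 and 460 of 461 macrophages of A0304, A0305 and A0307. In 24 of the 170 macrophages of A0301–A0303 the top tag belonged to another set. No cell number occurred under more than 1 hashtag. Results were therefore repeated with macrophages whose top tag was the called one and held at least 2/3 of 10 or more tag counts, which kept 131 and 1192 cells.

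Macrophages also differed in depth between the sets. Median reads per macrophage were 50175, 37944.5 and 49676 in A0301, A0302 and A0303 against 68568, 68858 and 65056 in A0304, A0305 and A0307, and the summed reads per hashtag were 2961321 to 4031971 against 29270200 to 39335629. The median mitochondrial share lay between 4.34% and 4.89% in all 6 hashtags. Among other cells of the same hashtags, median reads were 27619, 29781.5 and 27698 against 26427.5, 25388.5 and 30488. The median SD of log2(CPM + 1) between the hashtags of a set was 0.472 in A0301–A0303 and 0.159 in A0304–A0307, so the set with fewer cells varied more.

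Macrophages made up 6.20%, 5.39% and 6.33% of the kept cells of A0301, A0302 and A0303, and 30.5%, 33.9% and 37.6% of those of A0304, A0305 and A0307. The sets did not overlap. Their means were 5.97% ± 0.505 (SD, n = 3) and 34.0% ± 3.56 (SD, n = 3), a difference of 28.0 percentage points (exact two-sided permutation test over hashtags, p = 0.1, the smallest p that 3 against 3 allow). The widest exact 95% binomial interval within a hashtag, which covers counting error only, ran from 27.8% to 33.3% in A0304. With the stricter tag rule the difference was 30.8 points. Low counts of some markers are missing. The lowest value above 0 in any cell is 7 reads for Adgre1, Csf1r and Mrc1 and 20 for C1qb. The CPM at which such a marker is seen therefore depends on the reads of the cell. The part of depth in the shares was not tested.

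**Figure D1:**
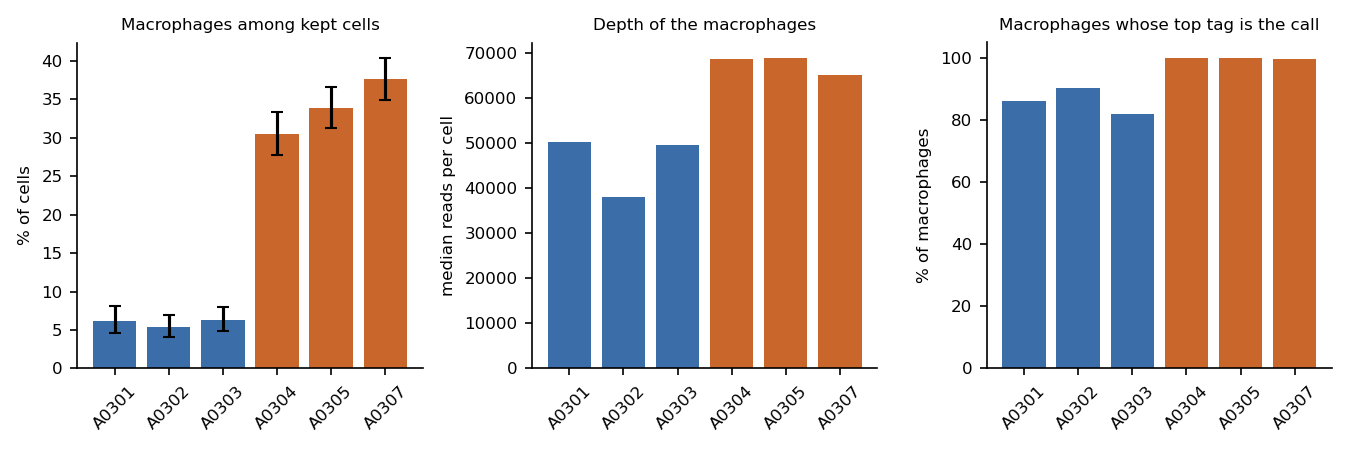
Bars give, for each of the 6 hashtags, the macrophage share of kept cells in percent (error bars, exact 95% binomial intervals), the median reads per macrophage, and the percentage of macrophages whose top tag is the called tag; blue is A0301–A0303 and orange A0304–A0307. Shares of 5.39% to 6.33% stand against 30.5% to 37.6%, and the blue bars are lower in depth and in tag match as well.

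The cell rule required its markers and limited its excluded genes, so neither can test the label of the cells. Of the markers that chose them, given as description only, Adgre1 (the F4/80 antigen) stood at 330.4, 359 and 455 CPM against 484, 515 and 493 CPM, Csf1r (the receptor of the macrophage growth factor) at 682, 678 and 631 CPM against 603, 602 and 648 CPM, and C1qa (complement) at 915, 1619.5 and 1260.4 CPM against 893, 828 and 871 CPM. Mrc1 (the mannose receptor CD206) stood at 713, 761 and 785 CPM against 414, 545 and 504 CPM. The order is A0301, A0302, A0303 against A0304, A0305, A0307, here and wherever values are set against each other. Mrc1 was lower and Adgre1 higher in each hashtag of A0304–A0307 than in each of A0301–A0303. The excluded genes were low throughout, as the rule requires, with Lum at 15.1, 26.7 and 13.4 CPM against 16.5, 18.6 and 16 CPM and Cdh5 at 1.42, 1.69 and 2.48 CPM against 3.25, 3.93 and 4.09 CPM. Dpt was at 26.7, 25.7 and 30 CPM against 25.4, 24.7 and 28.4 CPM. Cd3g was at 0.852, 0.675 and 6.45 CPM against 0.376, 0.477 and 0.203 CPM. Of 8 further macrophage genes that the rule did not use, 1 rose in A0304–A0307, Cd68 (a lysosomal membrane protein of macrophages), and 7 did not pass the test. Lyz2 (lysozyme) stood at 12095, 13257 and 13845 CPM against 10735, 10359.5 and 11843 CPM.

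Over all genes, edgeR's quasi-likelihood test on the summed reads called 112 of 15157 genes higher (0.739%) and 140 lower (0.924%) in A0304–A0307 at a Benjamini-Hochberg adjusted p under 0.05. The median log2 fold change of all genes tested was -0.03, with 7170 genes positive and 7987 negative. The counts of list members given below are to be read beside these shares and signs over all genes. Every called gene had values of both sets that did not overlap. The share of all 15157 genes without overlap is not given here, and a call favours such genes, so this adds no support. The counts rest on each hashtag of the larger set: without A0304 they were 10 and 12, without A0305 17 and 14, and without A0307 13 and 14. Without A0301 they were 247 and 233, without A0302 127 and 111, and without A0303 179 and 173. All 112 and all 140 genes kept their direction in each of these 6 fits in which they could be tested, and 10 and 11 were called in every one. Leaving out 1 hashtag can hardly turn the direction of a gene whose sets do not overlap, so the kept direction adds no support.

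Genes of the lipid-associated programme were among those on the higher side. Of the 17 list members, 8 rose in A0304–A0307 and none fell, 16 had a positive log2 fold change, and the list median was 0.96 against -0.03 over all genes. This list, like the others, was chosen with earlier results of these data known, so its counts are a description only. Fabp5, a fatty acid carrier of the cytosol, stood at 372, 276 and 334 CPM in A0301, A0302 and A0303 and 984, 938 and 933 CPM in A0304, A0305 and A0307. Every hashtag of the larger set was higher than every hashtag of the other (log2 fold change 1.59 ± 0.13 SE, adjusted p = 0.0048). Acp5, the tartrate-resistant acid phosphatase, was at 87.2, 86.4 and 71.4 CPM against 243, 262 and 271 CPM (log2 fold change 1.72 ± 0.11 SE, adjusted p = 0.004). Low counts of Acp5 are missing from the table, and its log2 fold change was 1.02 with the gaps filled, still called. Lgals3, a galectin of phagocytes, was among the most abundant members, at 4963, 2711 and 4368 CPM against 10867, 10960.3 and 10956 CPM (log2 fold change 1.49 ± 0.21 SE, adjusted p = 0.025).

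Lipid handling genes of the list followed. Plin2, the coat protein of lipid droplets, stood at 1476, 1029 and 1395 CPM against 2783, 2932 and 2992 CPM (log2 fold change 1.21 ± 0.15 SE, adjusted p = 0.016). Cd36, a scavenger receptor that takes up fatty acids and oxidised lipoprotein, was at 3451, 2189.9 and 3182 CPM against 5557, 5506 and 5544 CPM (log2 fold change 0.96 ± 0.17 SE, adjusted p = 0.044). The tetraspanin Cd63 of late endosomes was at 1024, 715 and 845 CPM against 1729, 1601 and 1776 CPM (log2 fold change 1.03 ± 0.14 SE, adjusted p = 0.024). In all of them the 3 hashtags of A0304–A0307 lay close together, and A0302 was the lowest hashtag of the other set.

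Other members of the list missed the threshold. Gpnmb, a transmembrane glycoprotein often used to mark these cells, was at 1354, 439 and 855 CPM against 3689.8, 2937 and 3644 CPM, with a wide spread in A0301–A0303 (log2 fold change 2.003 ± 0.37 SE, adjusted p = 0.052). Trem2, the lipid receptor that drives the programme, was at 817, 519 and 746 CPM against 1173, 1147 and 1283 CPM (log2 fold change 0.84 ± 0.18 SE, adjusted p = 0.073). Lpl, lipoprotein lipase, was at 6369.5, 2492 and 3671 CPM against 6135, 5617 and 5427 CPM, and A0301 overlapped the larger set (log2 fold change 0.50 ± 0.30 SE, adjusted p = 0.5). Lipa, the lysosomal acid lipase, was at 1238, 676 and 1125 CPM against 1911, 1796 and 1800.3 CPM (log2 fold change 0.90 ± 0.22 SE, adjusted p = 0.1).

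**Figure D2:**
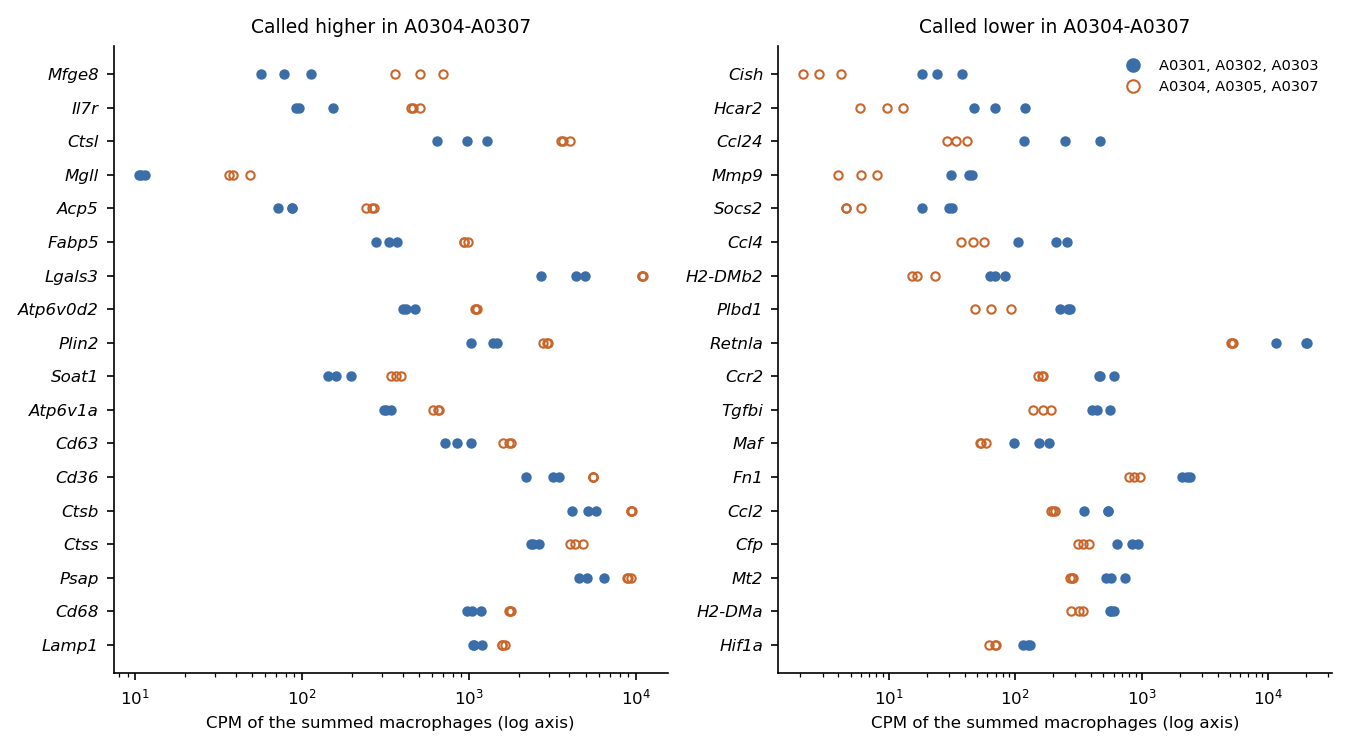
Each point is the CPM of the summed macrophages of 1 hashtag on a log axis, filled blue for A0301, A0302 and A0303 and open orange for A0304, A0305 and A0307, for 18 genes called higher (left) and 18 called lower (right). The points of the sets do not overlap for any gene shown, as for every called gene, and the open points lie closer together for most genes.

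Lysosome genes rose together with these. Of the 20 list members, 9 rose and none fell, 18 had a positive log2 fold change, and the median was 0.69. Among the proteases, Ctsl (cathepsin L), which the lipid-associated list holds, was at 1281, 645 and 973 CPM against 3548, 3649 and 4035 CPM (log2 fold change 2.002 ± 0.24 SE, adjusted p = 0.016). Ctsb (cathepsin B) was at 5167, 4143 and 5802 CPM against 9528, 9413 and 9377 CPM (log2 fold change 0.95 ± 0.14 SE, adjusted p = 0.024). Cathepsin S, Ctss, which also trims the MHC class II invariant chain, was at 2617, 2359 and 2423 CPM against 4809, 4009 and 4344 CPM (log2 fold change 0.88 ± 0.09 SE, adjusted p = 0.012). Ctsz reached 983, 789.5 and 802 CPM against 1605, 1455 and 1439.6 CPM (log2 fold change 0.86 ± 0.11 SE, adjusted p = 0.018). The membrane protein Lamp1 showed a smaller rise, at 1078, 1053 and 1194 CPM against 1641, 1569 and 1586 CPM (log2 fold change 0.58 ± 0.09 SE, adjusted p = 0.031).

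Enzymes of lysosomal breakdown were in this group too. Psap, the precursor of the saposins that help degrade sphingolipids, stood at 6437, 4538 and 5127 CPM against 9328, 8994 and 8898 CPM (log2 fold change 0.81 ± 0.13 SE, adjusted p = 0.033). Hexa, a hexosaminidase of ganglioside breakdown, was at 604, 592 and 697 CPM against 997, 1009 and 938 CPM (log2 fold change 0.69 ± 0.10 SE, adjusted p = 0.027). The peptidase Tpp1 was at 169, 158 and 183 CPM against 286, 255 and 258 CPM (log2 fold change 0.70 ± 0.11 SE, adjusted p = 0.035). Tfeb, the transcription factor that drives lysosome genes, was at 18.2, 24.7 and 20.3 CPM against 48.6, 45.3 and 43 CPM (log2 fold change 1.17 ± 0.19 SE, adjusted p = 0.032). Its call was lost in limma voom with a weight for each set, as was that of Tpp1, and with the stricter tags. Ctsd, cathepsin D, was at 4296, 2319 and 3754 CPM against 6910.2, 6761 and 6620.4 CPM but did not pass the test (log2 fold change 1.02 ± 0.22 SE, adjusted p = 0.075).

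Subunits of the proton pump were called as well. Of 20 genes tested whose symbols start with Atp6v or Atp6ap, a group collected after the values were seen, 5 rose, none fell, 17 had a positive log2 fold change, and the median was 0.59. Atp6v0d2 (GRCm38 chr4:19876841-19922605), a membrane-sector subunit typical of osteoclasts and macrophages, stood at 477, 417 and 401 CPM in A0301, A0302 and A0303 and 1087, 1122 and 1109 CPM in A0304, A0305 and A0307. The 3 values of A0304–A0307 lay close together and well above the others (log2 fold change 1.41 ± 0.09 SE, adjusted p = 0.004). Atp6v1a (chr16:44085402-44139705), the catalytic subunit, was at 341, 319.8 and 311.01 CPM against 665, 649 and 612 CPM (log2 fold change 1.04 ± 0.08 SE, adjusted p = 0.0042). Atp6v0a1 was at 101, 93.2 and 97.2 CPM against 204, 209.8 and 204 CPM (log2 fold change 1.13 ± 0.10 SE, adjusted p = 0.0051). Atp6v1c1 stood at 129.8, 119 and 125 CPM against 255, 259 and 246 CPM (log2 fold change 1.08 ± 0.10 SE, adjusted p = 0.0051). Atp6v0d2, Atp6v1a and Atp6v0a1 were called in all 6 fits that left out 1 hashtag.

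Promoters of the genes that rose were searched for TCACGTGA, the palindromic core of the CLEAR element that TFEB is known to bind, in 300 bases around each gene's RefSeq start. Promoter sequences were those of RefSeq on GRCm38.p6. The motif occurred in 1.12% of 27025 genes with a promoter, in 223 of 10661 such genes tested here (2.09%), in 5 of 93 called higher and in 1 of 92 called lower. The counts are small, and a match is a description of letters only. The matches in 4 of the 5 genes called higher are shown to set the motif in its context, with up to 26 bases on each side and the motif in capitals. In the order shown, it starts 132, 74, 228 and 106 bases before the RefSeq start. In Atp6v0e, a V-ATPase subunit and the called gene not shown, it starts just after the RefSeq start. The GENCODE gene bounds used for the positions given elsewhere differ. By these, the match lies inside the gene for Atp6v1a and 47, 108 and 66 bases before the start for Dpp7, Gla and Atf1. Besides Atp6v1a the genes shown are Dpp7 (a dipeptidyl peptidase of vesicles), Gla (the lysosomal alpha-galactosidase) and Atf1 (a transcription factor of the CREB family). The coordinates are chr16:44139358-44139417, minus strand for Atp6v1a, chr2:25356373-25356432, minus strand for Dpp7, chrX:134601200-134601255, minus strand for Gla and chr15:100227727-100227786, plus strand for Atf1.
Atp6v1a: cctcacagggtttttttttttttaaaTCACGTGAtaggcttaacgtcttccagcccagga
Dpp7: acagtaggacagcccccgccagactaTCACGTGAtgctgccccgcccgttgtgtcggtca
Gla: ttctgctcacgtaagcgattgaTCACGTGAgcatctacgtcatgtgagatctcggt
Atf1: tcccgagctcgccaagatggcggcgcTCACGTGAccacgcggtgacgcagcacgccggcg

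The levels of those genes were 42.9, 41.2 and 39.4 CPM against 76.2, 62.3 and 70.6 CPM for Dpp7 (log2 fold change 0.81 ± 0.15 SE, adjusted p = 0.048), 153, 138 and 149.8 CPM against 227, 213 and 210.5 CPM for Gla (log2 fold change 0.61 ± 0.10 SE, adjusted p = 0.037) and 31, 41.9 and 39.7 CPM against 65.8, 87.5 and 69.2 CPM for Atf1 (log2 fold change 1.03 ± 0.18 SE, adjusted p = 0.043). None of these 3 was called in voom with set weights or without the 24 and 80 cells that reached 100 CPM of other cell types' markers, and Dpp7 and Atf1 were not called with the stricter tags.

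Genes that store or export lipid rose in part. Of 12 cholesterol handling genes tested, 2 rose and none fell, with a median of 0.59. Soat1, which esterifies cholesterol for storage, was at 196, 142 and 159 CPM against 392, 367 and 342 CPM (log2 fold change 1.20 ± 0.14 SE, adjusted p = 0.016). Nr1h3, the sterol sensor LXR alpha, was at 25.6, 29.4 and 35.7 CPM against 74.3, 63.4 and 58.4 CPM (log2 fold change 1.16 ± 0.20 SE, adjusted p = 0.04), a call that was made neither by voom with set weights nor with the stricter tags. The exporters Abcg1 (109, 70.6 and 125 CPM against 205, 198 and 197 CPM, adjusted p = 0.073 by edgeR) and Abca1 (89.5, 92.9 and 132 CPM against 115, 118 and 143 CPM, adjusted p = 0.53) did not pass. Apoe, the carrier apolipoprotein, was high in both sets and overlapped, at 3352, 4496 and 5962 CPM against 4594, 6693 and 6228 CPM.

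Fatty acid uptake and storage gave 2 of 16 genes higher and none lower, with a median of -0.09. These were Mgll, the lipase that splits monoacylglycerol, at 10.5, 10.8 and 11.4 CPM against 48.4, 38.8 and 36.6 CPM (log2 fold change 1.97 ± 0.22 SE, adjusted p = 0.012, not called in voom with set weights), and Slc27a1, a fatty acid transporter, at 128, 95.2 and 129 CPM against 226, 226 and 213 CPM (log2 fold change 0.97 ± 0.15 SE, adjusted p = 0.031). No member was called among 14 sterol synthesis genes (median -0.05), where Hmgcs1 was at 40.9, 46.3 and 36.2 CPM against 37.5, 38.5 and 34.9 CPM, nor among 12 fatty acid oxidation genes (median 0.31), where Hadha was at 219, 187 and 165 CPM against 268, 249 and 236 CPM. The stricter tags called 3 of those 12 oxidation genes higher, with a median of 0.42, and no sterol synthesis gene. Over all 15157 genes edgeR gave 2332 an unadjusted p under 0.05.

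Among the 15 largest rises by the rule for named genes was Mfge8 (GRCm38 chr7:79133768-79149060), a secreted bridge between dying cells and phagocytes and 1 of 12 apoptotic cell uptake genes tested. It stood at 113, 57.1 and 78.1 CPM in A0301, A0302 and A0303 and 509.9, 359.8 and 702 CPM in A0304, A0305 and A0307. Its values in A0304–A0307 were wide but all above those of A0301–A0303 (log2 fold change 2.71 ± 0.33 SE, adjusted p = 0.016), and voom with set weights did not call it. Other genes of that list did not pass, with the receptor Axl at 161, 141 and 92.5 CPM against 122, 132 and 108 CPM. Il7r (chr15:9505788-9530176), the interleukin 7 receptor, best known from lymphocytes, was at 153, 92.5 and 96 CPM against 459.5, 508 and 449 CPM (log2 fold change 2.104 ± 0.20 SE, adjusted p = 0.0065), and was called in all 6 fits that left out 1 hashtag. F7, coagulation factor VII, was at 49.1, 146 and 75.9 CPM against 386, 352 and 382 CPM (log2 fold change 2.12 ± 0.34 SE, adjusted p = 0.033). With missing low counts filled, the log2 fold change was 1.46 for Il7r and 1.30 for F7, both still called. With the stricter tags F7 was not called (log2 fold change 2.38, adjusted p = 0.095 by edgeR).

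Vsig8, an immunoglobulin-domain protein, was at 40.1, 63.1 and 30.5 CPM against 155, 163 and 175 CPM (log2 fold change 1.95 ± 0.23 SE, adjusted p = 0.016). The ubiquitin ligase subunit Fbxo32 was at 48.3, 46.6 and 75.6 CPM against 192, 204 and 177 CPM (log2 fold change 1.79 ± 0.22 SE, adjusted p = 0.016). With gaps filled these were 0.84 and 0.93 on the log2 scale and still called. Vsig8 was not called with the stricter tags (adjusted p = 0.14 by edgeR) or without the cells of other types (adjusted p = 0.061). Fam20c, a kinase of secreted proteins, was at 40.6, 43.9 and 40.7 CPM against 132, 113 and 131 CPM (log2 fold change 1.64 ± 0.13 SE, adjusted p = 0.0042). Lhfpl2, a tetraspan membrane protein, was at 47.2, 46.6 and 44.1 CPM against 158, 134 and 151 CPM (log2 fold change 1.74 ± 0.13 SE, adjusted p = 0.0042), and was not called with the stricter tags (adjusted p = 0.07). The transporter Mfsd12 of lysosomes and melanosomes was at 64.5, 41.9 and 67.7 CPM against 147, 153 and 143 CPM (log2 fold change 1.39 ± 0.20 SE, adjusted p = 0.025). Dnmt3aos, an RNA antisense to Dnmt3a, was low, at 9.09, 12.8 and 8.68 CPM against 27.5, 25.9 and 24.1 CPM (log2 fold change 1.40 ± 0.25 SE, adjusted p = 0.044), and lost its call in voom with set weights, with the stricter tags and without the cells of other types. Whether the counting used strand is not stated in the labels, so its reads cannot be told from those of Dnmt3a.

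More cells held reads of some of the genes that rose. After every cell was thinned to 10000 reads, which left 49, 50 and 65 against 329, 403 and 451 macrophages, Il7r was seen in 20.4, 14 and 16.9% against 44.4, 47.9 and 45.7% of macrophages. In fibroblasts of the same 6 hashtags (Lum and Dpt both at 50 CPM, fewer than 3 macrophage markers), thinned alike, the share was 1.06% to 2.66%. For Atp6v0d2 the shares were 30.6, 18 and 32.3% against 61.4, 64.8 and 64.1%, with 0% to 2.03% in fibroblasts. For Acp5 they were 14.3, 12 and 13.8% against 32.2, 40.7 and 41.9%, with 1.41% to 3.65% in fibroblasts. F7 was seen in 12.2, 12 and 12.3% against 39.2, 44.4 and 44.6%, with 0% to 0.997% in fibroblasts. The lowest value above 0 in any cell is 7 reads for Il7r and F7, 9 for Atp6v0d2 and 6 for Acp5. Lower counts were thus missing before thinning, and cells with fewer reads, as in A0301–A0303, can lose more of them. Thinning does not correct for this, and the part of depth in these differences was not tested. Before thinning the fibroblasts had median reads of 43045 to 59290 per hashtag. Mfge8 was seen in 24.5, 20 and 16.9% against 28.6, 28 and 30.8% of macrophages, below the 53.7% to 63.1% of fibroblasts, and no difference is read from its shares.

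Genes of recently recruited cells were lower in A0304–A0307. Of 12 tested, 5 fell and none rose, all 12 had a negative log2 fold change, and the median was -1.66. Ccr2 (GRCm38 chr9:124101950-124113557), the receptor that draws monocytes out of blood, stood at 472, 463 and 606 CPM in A0301, A0302 and A0303 and 166, 162 and 151 CPM in A0304, A0305 and A0307. The sets were far apart, with little spread in A0304–A0307 (log2 fold change -1.64 ± 0.14 SE, adjusted p = 0.0051). Thinned to 10000 reads, 51, 60.0 and 56.9% against 36.8, 31.5 and 30.2% of macrophages held a Ccr2 read, and 2.38% to 6.98% of fibroblasts. Fn1 (chr1:71585520-71653200), fibronectin, was at 2277, 2432 and 2089 CPM against 968, 793 and 869 CPM (log2 fold change -1.31 ± 0.10 SE, adjusted p = 0.0042), and Ccr2 and Fn1 were called in all 6 fits that left out 1 hashtag.

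Retnla, a secreted protein of alternative activation, was among the most abundant genes that fell, at 11587, 19860.1 and 20285 CPM against 5205, 5298 and 5105 CPM (log2 fold change -1.68 ± 0.20 SE, adjusted p = 0.016). Its lowest value above 0 in any cell is 57 reads, so lower counts are missing from the table. Cd226, an adhesion receptor of lymphocytes and some macrophages, was at 93.2, 218 and 150.1 CPM against 32.1, 26.7 and 20.1 CPM (log2 fold change -2.49 ± 0.32 SE, adjusted p = 0.019), and the phospholipase Plbd1 at 225, 274 and 262 CPM against 92.1, 64.7 and 48 CPM (log2 fold change -1.84 ± 0.24 SE, adjusted p = 0.02). Members that did not pass included S100a6 (1508, 1474 and 1346 CPM against 1057, 1106 and 1273 CPM), S100a4 (936, 889 and 929 CPM against 785, 727 and 897 CPM) and Ear2 (835, 1004 and 605 CPM against 571, 816 and 553 CPM).

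Resident macrophage genes had a similar median without a call. None of 16 passed the test, and 15 had a negative log2 fold change and the median was -1.67. F13a1, the clotting factor XIII A subunit, was at 240.3, 441 and 729 CPM against 122, 132 and 136 CPM (log2 fold change -1.81 ± 0.37 SE, adjusted p = 0.065). Folr2, a folate receptor, was at 323, 445 and 592 CPM against 208, 238 and 267 CPM (log2 fold change -0.89 ± 0.23 SE, adjusted p = 0.11), and the chemokine Pf4 at 527, 863 and 923 CPM against 471, 452 and 535 CPM (log2 fold change -0.61 ± 0.21 SE, adjusted p = 0.21). Selenop, the selenium carrier, overlapped between the sets at 1893, 2569 and 3515 CPM against 2393, 3315 and 2924 CPM. The list varied between the hashtags of A0301–A0303, and its median was -0.99 with 1 gene called lower without A0303, and -2.002 with 8 of 16 called lower without A0301. The stricter tags called 2 lower.

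Antigen presentation gave 2 calls. Of 8 MHC class II genes tested, 2 fell and none rose, all 8 were negative, and the median was -0.42. Both called genes encode H2-M, the chaperone that loads peptide: H2-DMb2 was at 82.7, 68.9 and 63.2 CPM against 15.3, 23.4 and 16.6 CPM (log2 fold change -1.90 ± 0.21 SE, adjusted p = 0.013) and H2-DMa at 603, 565 and 571 CPM against 319.6, 346 and 277 CPM (log2 fold change -0.83 ± 0.10 SE, adjusted p = 0.016). The classical chains did not pass, with H2-Aa at 5160.2, 6214 and 4689 CPM against 4255, 4247 and 3727 CPM (log2 fold change -0.34 ± 0.10 SE, adjusted p = 0.16) and H2-Ab1 at 4722, 5955 and 4573 CPM against 3737, 3768 and 3186 CPM (log2 fold change -0.46 ± 0.11 SE, adjusted p = 0.091). The stricter tags called 6 of the 8 lower. Without cells meeting the recruited rule (at least 3 genes of the recruited list seen), none was called, 7 of the 8 were positive and the median was 0.22, with H2-DMa and H2-DMb2 among the positive ones. The rule was met by 75.5%, 72.0% and 67.7% of the thinned macrophages of A0301, A0302 and A0303. Few cells were left, and that fit called 0 of 11014 genes in either direction. The part of recruited cells in the MHC class II values was not tested.

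Type 2 activation genes fell in part. Of 11 genes tested, 4 fell and none rose, with a median of -1.21. Ccl24, an eosinophil attractant, was at 118, 473 and 250.002 CPM against 41.6, 29.2 and 33.8 CPM (log2 fold change -2.94 ± 0.46 SE, adjusted p = 0.032), and at -1.90 on the log2 scale with missing low counts filled, still called. Cish, a feedback inhibitor that STAT5 signals induce, was at 37.8, 24.3 and 18.4 CPM against 4.2, 2.1 and 2.8 CPM (log2 fold change -3.08 ± 0.42 SE, adjusted p = 0.024). Its relative Socs2 was at 30.1, 18.2 and 31.5 CPM against 6.01, 4.6 and 4.6 CPM (log2 fold change -2.35 ± 0.33 SE, adjusted p = 0.024). The receptor chain Il4ra was at 69, 64.5 and 46.1 CPM against 21.6, 31.2 and 21.8 CPM (log2 fold change -1.21 ± 0.22 SE, adjusted p = 0.049), and voom with set weights did not call it. Thinned to 10000 reads, Cish was seen in 16.3, 12 and 9.23% against 3.34, 0.993 and 2% of macrophages and 7.12% to 9.74% of fibroblasts, which lay above the values of A0304–A0307. Arg1 was uneven in A0301–A0303 and did not pass (65.9, 222 and 19.3 CPM against 13.7, 22 and 23.6 CPM, log2 fold change -2.28 ± 0.74 SE, adjusted p = 0.19).

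Among inflammatory genes, chemokines gave the calls. Of 17 tested, 2 fell and none rose, with a median of -0.68. The monocyte attractant Ccl2 was at 352, 546 and 544 CPM against 193, 198 and 207 CPM (log2 fold change -1.22 ± 0.17 SE, adjusted p = 0.025). Ccl4, an attractant of several leukocytes, was at 105, 212 and 258 CPM against 37.6, 56.5 and 46.1 CPM (log2 fold change -1.99 ± 0.33 SE, adjusted p = 0.037), and at -1.36 on the log2 scale with gaps filled, still called. The chemokines Ccl9 (3195, 3188 and 3012 CPM against 3372, 3414 and 3654 CPM, log2 fold change 0.21 ± 0.06 SE, adjusted p = 0.18) and Cxcl2 (2726, 1913 and 2106 CPM against 2265, 2399 and 2525 CPM, log2 fold change 0.14 ± 0.14 SE, adjusted p = 0.7) did not pass. Nor did the feedback inhibitor Nfkbia (783, 662 and 578 CPM against 569, 608 and 620.0 CPM). Among 15 interferon-induced genes none was called, with 13 negative and a median of -0.84.

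Immediate early genes, which enzymatic digestion of tissue can switch on, moved in the same direction as the recruited and inflammatory lists. Of 15 tested, 3 fell, none rose and all 15 were negative, with a median of -0.62. The stricter tags called 8 of the 15 lower (median -0.81) and voom with set weights 5. Without the cells of other types none was called. Ier2 was at 242, 370.4 and 229 CPM against 124, 128 and 126 CPM (log2 fold change -1.09 ± 0.17 SE, adjusted p = 0.032). Egr1, a zinc finger factor, was at 670.1, 919 and 863 CPM against 494, 464 and 472 CPM (log2 fold change -0.72 ± 0.12 SE, adjusted p = 0.041). Junb, a subunit of the AP-1 factor, was at 618, 774 and 668 CPM against 450.2, 441 and 424 CPM (log2 fold change -0.59 ± 0.09 SE, adjusted p = 0.032). Its partner Fos did not pass (2377, 2829 and 3086 CPM against 2119, 2039 and 2132 CPM, log2 fold change -0.35 ± 0.11 SE, adjusted p = 0.18). The part of this response in the other lists was not tested.

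Matrix and complement genes also gave calls on the lower side. Of 17 matrix genes tested, 2 fell and none rose. Mmp9, a gelatinase, was at 31, 45.9 and 43.4 CPM against 4, 6 and 8.06 CPM (log2 fold change -2.68 ± 0.33 SE, adjusted p = 0.017). Tgfbi, a matrix protein induced by TGF-beta, was at 558, 408 and 448 CPM against 167, 139.7 and 192 CPM (log2 fold change -1.45 ± 0.17 SE, adjusted p = 0.015). Mmp12, the macrophage elastase, was not called, at 1727, 719 and 1864 CPM against 2874, 2151 and 2994 CPM (log2 fold change 0.94 ± 0.35 SE, adjusted p = 0.25). Nor was the metalloproteinase Mmp19, at 207, 124 and 109 CPM against 442, 276 and 448 CPM (log2 fold change 1.46 ± 0.29 SE, adjusted p = 0.061). Of 12 complement and Fc receptor genes tested, 3 fell and none rose. Cfp, properdin, which stabilises the alternative convertase, was at 639, 944 and 833 CPM against 347, 387 and 314.63 CPM (log2 fold change -1.15 ± 0.15 SE, adjusted p = 0.019). C2 stood at 28.1, 48.6 and 20.1 CPM against 4.27, 2.41 and 3.56 CPM and Cfb at 43.2, 52.7 and 14.9 CPM against 4.82, 3.25 and 2.85 CPM. None of 17 growth factor genes passed, with Igf1 at 234, 312.70 and 319 CPM against 346, 403 and 347 CPM (log2 fold change 0.39 ± 0.14 SE, adjusted p = 0.23) and Tgfb1 at 145, 187 and 184 CPM against 153, 169 and 157 CPM (log2 fold change -0.05 ± 0.13 SE, adjusted p = 0.89).

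Regulators gave a few calls. Of 17 transcription factors of macrophage state, 2 fell and none rose. Maf, known from resident macrophages, was at 98.3, 185 and 154 CPM against 54, 52.6 and 59.2 CPM (log2 fold change -1.34 ± 0.22 SE, adjusted p = 0.036). The zinc finger factor Klf2 was at 414, 578 and 389 CPM against 249.8, 272 and 259.6 CPM (log2 fold change -0.76 ± 0.14 SE, adjusted p = 0.047). Spi1 (235, 271 and 335 CPM against 327, 342 and 326 CPM), which encodes PU.1, did not pass. Of 18 glycolysis and hypoxia genes, 2 fell and none rose. Hif1a, the oxygen-sensed factor, was at 131, 126 and 115 CPM against 69.8, 71.2 and 62.1 CPM (log2 fold change -0.82 ± 0.12 SE, adjusted p = 0.024). Egln3, a HIF prolyl hydroxylase, was near 0 in the larger set (5.97, 8.1 and 5.95 CPM against 0.0683, 0.028 and 0.203 CPM, log2 fold change -5.88 ± 0.80 SE, adjusted p = 0.024). The enzymes Pkm and Gapdh did not pass, at 834, 449 and 636 CPM against 708, 654 and 643 CPM and 685, 601 and 500.0 CPM against 596, 608 and 593 CPM.

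Metal handling was split. Ftl1, the ferritin light chain that stores iron, rose (10029, 8036 and 11934 CPM against 17416, 17379 and 16592 CPM, log2 fold change 0.82 ± 0.15 SE, adjusted p = 0.048), and Mt2, a metallothionein, fell (523, 574 and 737 CPM against 286, 274 and 281 CPM, log2 fold change -1.08 ± 0.15 SE, adjusted p = 0.024). These were the only calls among 17 antioxidant genes. The ferritin heavy chain Fth1 was at 5215, 4993 and 7259 CPM against 8541, 7879 and 8098 CPM and did not pass (log2 fold change 0.54 ± 0.16 SE, adjusted p = 0.17). Of 5 nuclear RNAs, Neat1 fell (182, 192 and 175 CPM against 106, 118 and 109 CPM, log2 fold change -0.67 ± 0.10 SE, adjusted p = 0.024) and Malat1 did not pass (978, 1155 and 1178 CPM against 943, 977 and 948 CPM).

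**Figure D3:**
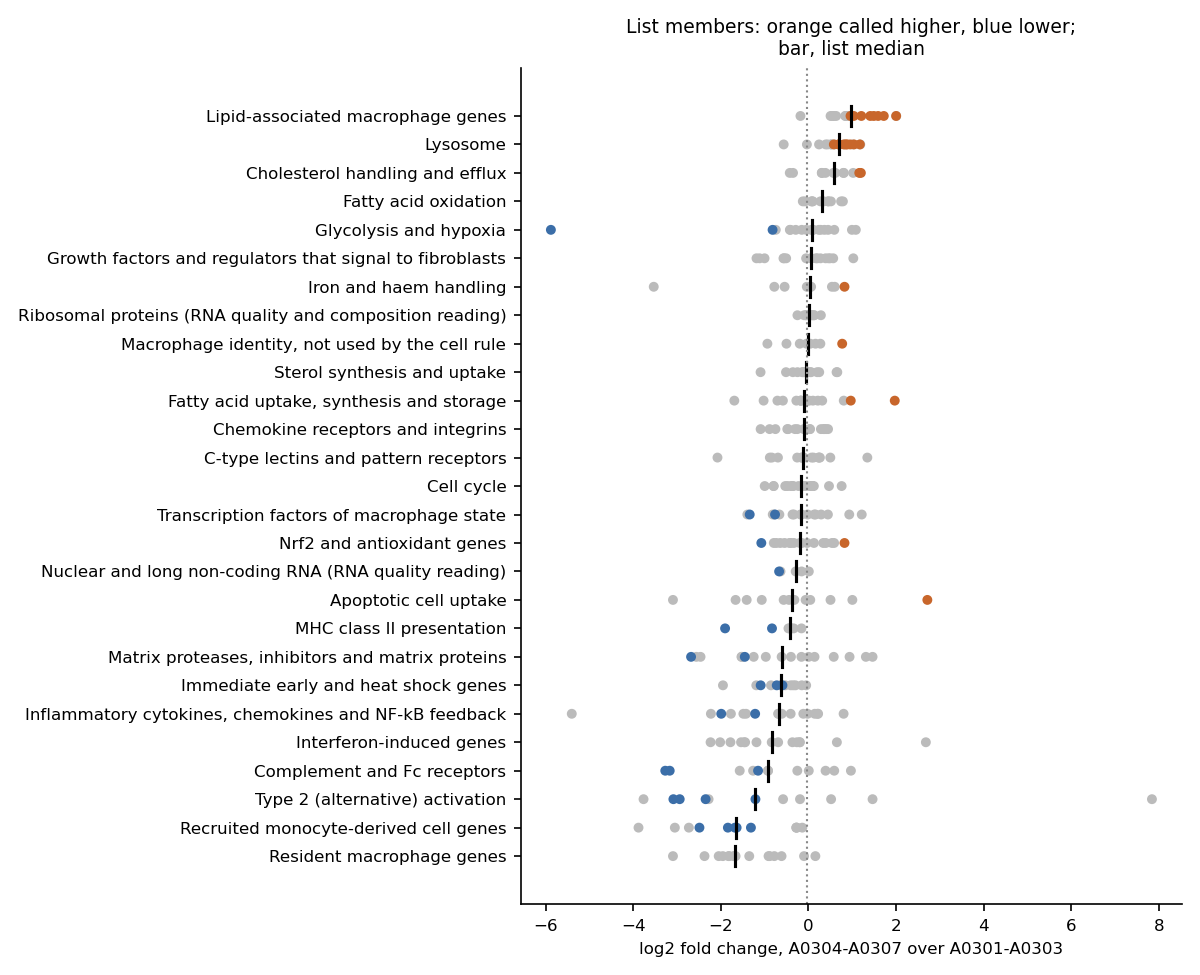
Each point is 1 list member at its log2 fold change (A0304–A0307 over A0301–A0303); orange points were called higher, blue lower and grey not called, and the black bar is the list median. The dotted line is the median of all genes, -0.03. The lipid-associated list (median 0.96) and the lysosome list (0.69) lie to the right, and the recruited (-1.66) and resident (-1.67) lists to the left.

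Besides the resident, interferon, sterol synthesis, fatty acid oxidation and growth factor lists, lists of macrophage processes without a call in either direction were cell cycle (18 genes, median -0.17), C-type lectins and pattern receptors (16, median -0.12), chemokine receptors and integrins (15, median -0.11) and ribosomal proteins (14, median 0.01). The cell cycle list depended on the tags. In all macrophages 7 of its 18 genes were positive, and with the stricter tags 15 were, with 1 called higher and a median of 0.61. In the cell cycle list H2az1 was at 691, 729 and 494 CPM against 611, 681 and 654 CPM and Pcna at 410.2, 329.6 and 333 CPM against 319, 385 and 347 CPM. Itgb2, an integrin chain of leukocytes, was at 610.5, 458 and 693 CPM against 788, 664 and 809 CPM and Fcer1g, an Fc receptor chain, at 904, 1061 and 940.0 CPM against 860.1, 846 and 859 CPM. Rplp0 stood at 1657, 1787 and 1602 CPM against 1531, 1526 and 1487 CPM.

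The genes with the largest drops came with markers of other cell types. By the rule for named genes, the 15 largest drops were Nkain4, Upk3b, Clu, Efemp1, Pkhd1l1, Igfbp6, Rarres2, Rspo1, Prss23, Plac9b, Plac9a, Cfb, C2, Cish and Hcar2. Upk3b, a uroplakin of the mesothelium that lines the fat pad, stood at 89.5, 114 and 14.4 CPM in A0301, A0302 and A0303 and 0.649, 0.365 and 2.62 CPM in A0304, A0305 and A0307. Nkain4, a membrane protein, was at 81.8, 40.9 and 37.7 CPM against 0.854, 0.196 and 0.458 CPM (log2 fold change -6.69 ± 0.60 SE, adjusted p = 0.0051). The matrix protein Efemp1 was at 101, 57.7 and 12.4 CPM against 1.88, 0.673 and 1.96 CPM (log2 fold change -5.17 ± 0.81 SE, adjusted p = 0.032). Igfbp6, a binding protein of insulin-like growth factors, was at 206, 139.8 and 117 CPM against 7, 3.11 and 6.74 CPM (log2 fold change -4.72 ± 0.39 SE, adjusted p = 0.005). Low counts of all 4 are missing from the table, and with the gaps filled their log2 fold changes were -1.02, -1.12, -0.96 and -1.46, still called. Summed over the list, 4 mesothelial markers were at 147, 258 and 23.3 CPM against 4.30, 1.93 and 15.4 CPM. A list of 4 B cell markers was at 0.568, 185 and 1849 CPM against 5.67, 9.59 and 7.27 CPM. The mural list was at 12.5, 198 and 12.6 CPM against 34.8, 24.6 and 5.11 CPM. The T cell list was at 43.7, 30.1 and 30.8 CPM against 5.09, 4.85 and 4.83 CPM, and of it Trbc2 was called lower. All defining markers of these lists were above 0 in at least 1 hashtag. Further, 6 fibroblast markers came to 1232, 1107 and 713 CPM against 594, 573 and 585 CPM, and 4 monocyte markers to 20.5, 114 and 32.0 CPM against 11.8, 12.3 and 10.1 CPM.

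Few cells held these reads, but they made up a larger part of A0301–A0303 than of A0304–A0307. In 6 of 170 macrophages of A0301–A0303 and 9 of 1210 of A0304–A0307 the mesothelial markers reached 100 CPM, and any of the mesothelial, B cell, mural, T cell or natural killer lists did so in 24 and 80 cells. Without those 24 and 80 cells, an alternative chosen after the values were seen, 5 of the 15 largest drops were no longer testable, 8 were not called, of which Rspo1, Prss23 and Plac9a reversed, and Cish and Hcar2 were still called. With the stricter tags, which leave fewer cells, 3 of the 15 were called. Under the stricter tags Igfbp6 was at -4.79 on the log2 scale (adjusted p = 0.056 by edgeR). Cfb was at -3.34 (adjusted p = 0.038) and C2 at -3.09 (adjusted p = 0.12). Without the 24 and 80 cells, Igfbp6 had a log2 fold change of -0.89 (adjusted p = 0.8 by edgeR). Cfb then had -0.76 (adjusted p = 0.73) and C2 -0.77 (adjusted p = 0.77). Nkain4 and Upk3b could not be tested without those cells. Upk3b is 1 of the mesothelial markers by which cells were removed, so its loss was set by that choice. Hcar2, the receptor of niacin and ketone bodies, stood at 69.6, 46.9 and 119.8 CPM against 9.7, 13 and 5.92 CPM in all macrophages and had a log2 fold change of -3.21 without those cells (adjusted p = 0.027).

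Of the 15 largest rises, 12 were still called without those cells and all 15 kept their direction. Among list members other than markers of other cell types, 24 were called higher and 27 lower, of which 16 and 15 were still called. The calls of Lgals3, Cd36, Cd63, Tpp1, Tfeb, Nr1h3, Slc27a1 and Ftl1 on the higher side were lost, as were those of Ccl24, Socs2, Il4ra, Ier2, Egr1, Junb, Klf2, Maf, Mt2, Cfb and C2 on the lower. For many of these the size held: Lgals3, Cd36, Cd63 and Ccl24 had log2 fold changes of 1.48, 1.00, 1.04 and -3.28 without those cells, against 1.49, 0.96, 1.03 and -2.94 in all macrophages. Egln3 could not be tested there or with the stricter tags. Over all genes the counts were 63 and 81 without these cells, and 54 and 71 of them were among the 112 and 140. Fabp5 then had a log2 fold change of 1.55 (adjusted p = 0.0079 by edgeR) and Ccr2 one of -1.92 (adjusted p = 0.0055).

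**Figure D4:**
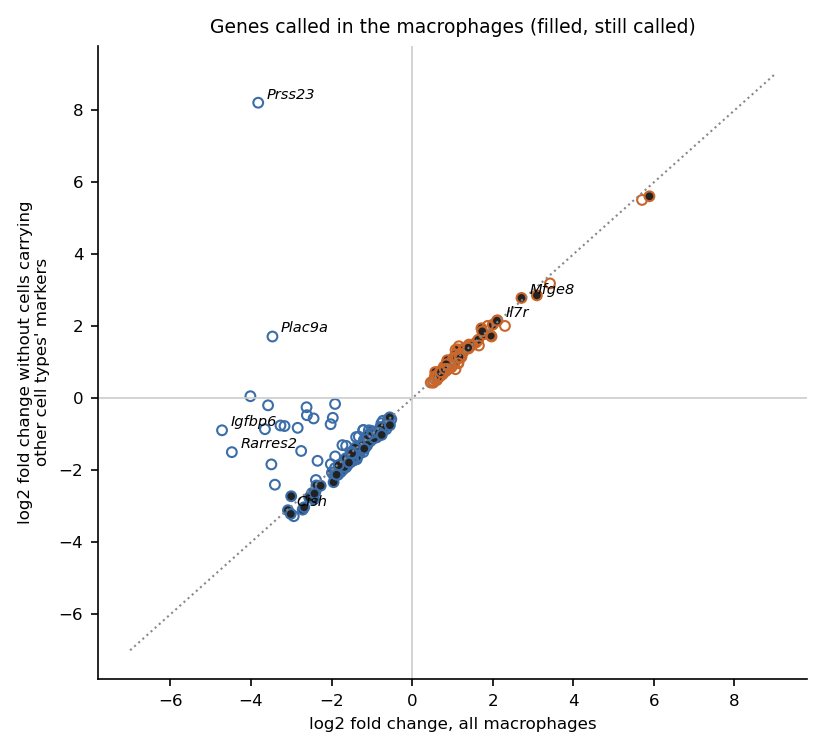
Each circle is a gene called in all macrophages, at its log2 fold change there (horizontal axis) and without the 24 and 80 cells that carry other cell types' markers (vertical axis); filled circles were called in both, and the dotted line marks equal values. The 112 genes called higher stay near the line, while Igfbp6, Rarres2, Prss23 and Plac9a leave it; 15 genes called lower could not be tested and are not drawn.

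With the stricter tag rule, 191 genes were called higher and 182 lower, including 83 of the 112 and 100 of the 140. Of the 17 lipid-associated genes, 12 were called higher with these tags (median 1.52) and 6 without the cells of other types (median 1.00). Limma voom with a weight for each set, chosen after the spread was seen because A0301–A0303 varied more, called 95 and 167, including 71 and 129. In the fit with the strict tags, in the voom fit and without the cells of other types alike, 39 of the 112 and 61 of the 140 were called. Among the list members this held for 14 of the 24 called higher and 15 of the 27 called lower. They include Ctsl, Acp5, Fabp5, Plin2, Soat1, Psap, Ctsb and Atp6v1a on the higher side and Ccr2, Fn1, Retnla, Ccl2, Cfp, Mmp9 and H2-DMa on the lower.

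Composition was read with gene rules on thinned cells. At least 3 genes of the resident list were seen in 63.3%, 70.0% and 66.2% of macrophages of A0301, A0302 and A0303 and in 56.5%, 57.8% and 57.2% of those of A0304, A0305 and A0307. For the cell cycle list the shares were 57.1%, 40.0% and 52.3% against 63.5%, 63.8% and 61.4%. At least 4 MHC class II genes were seen in 87.8%, 88.0% and 80.0% against 92.7%, 92.6% and 91.1%, and the lipid-associated rule was met by 95.4% to 98.8% of cells in every hashtag. The sets did not overlap for these 4 rules, each with p = 0.1 (exact two-sided permutation test, adjusted 0.125 over 5 rules). The recruited rule overlapped, at 75.5%, 72.0% and 67.7% against 79.3%, 73.4% and 75.8% (exact permutation p = 0.2). At 20000 reads a cell the differences shrank from 13.1 to 6.40 points for the cell cycle rule (exact permutation p = 0.9) and from 6.88 to 1.77 points for MHC class II (exact permutation p = 1). Asking for 1 gene fewer cut the difference of the resident rule from -9.29 to -0.905 points (exact permutation p = 1), with sets that overlapped. Most cells met most rules, so these shares separate cells poorly, and the MHC class II share went against the lower CPM of its genes and gives no order.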

How the data were processed

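The deposited tables hold whole-number counts: reads of each gene in each cell, and tags of each hashtag at each barcode. Processing used cutadapt 2.10, Bowtie2 2.4.2 and R 3.6.3 with GRCm38, per the submitters' processing notes. How cells, doublets and hashtags were called is not stated there. No collapse to molecules is recorded, so counting intervals are too narrow. Of 12040 columns, 11750 carry 1 of 9 hashtag calls and 290 (doublet or no tag) were not used. Low counts are missing for 389 of the 18090 genes seen in over 100 cells and for 62 of the 252 called genes, and 1 alternative filled these gaps with the largest count each can hide.

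Reads were summed over macrophages per hashtag and tested with edgeR 4.0.16 (filterByExpr, TMM, robust quasi-likelihood, Benjamini-Hochberg over all genes). R 4.3.3 ran limma 3.58.1 and DESeq2 1.42.0 as alternatives, and Python 3.11.15 the rest. In counts simulated for this comparison over 15157 genes, the test found 68 of 100 genes changed 2-fold and 97 of 100 changed 4-fold, and called 10 of 14957 unchanged genes. Each simulated gene had the same dispersion in both sets, and the changed genes had a mean of at least 20 CPM. The real sets differ in spread (median SD 0.472 and 0.159), so these rates need not hold for the data. Positions are from GENCODE M21.

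Named genes are the 15 largest changes each way among called genes with 20 CPM or more in 1 set and no overlap (predicted, mitochondrial, ribosomal protein and Y-linked genes, Xist and Tsix left out), and per list up to 6 called members by adjusted p and up to 3 abundant members not called. Chosen outside this rule after their values were seen were Atp6v0a1, Atp6v1c1, Dpp7, Gla, Atf1, Tfeb, Psap, Tpp1, Cd36, Trem2, Abca1, F13a1, Mmp19, Arg1, Spi1, Tgfb1 and Trbc2. The members, rules and lists were chosen with earlier results of these data known.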

Additional observations from a re-analysis of the deposited data

How the results depend on the processing

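All 3 hashtags of the smaller set together hold 170 macrophages, which limits what can be tested, and the test depends on the method. Against 112 genes higher and 140 lower, DESeq2 called 539 and 747, the 20 CPM filter 180 and 226, all 9 hashtags 269 higher, limma on the mean of per-cell CPM 43 and 38, at least 4 markers 32 and 41, the strict tag rule 191 higher, and leaving out cells with other types' markers 63 and 81. Leaving out 1 hashtag gave 10 to 247 higher and 12 to 233 lower; list members called were 4 to 32 (24 in the full fit) and 3 to 42 (27). Macrophage shares kept their direction under all 11 alternatives, with leave-one-out differences of 26.2 to 29.8 points. As the shares of the sets did not overlap, leaving out 1 hashtag could not reverse the difference.

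Gene rules that most cells meet leave few cells when used to remove them, with fewer genes tested. Without cells meeting the cycling rule, 7 genes were higher and 5 lower (1 and 3 list members); without the resident rule, 2 and 21 (1 and 8); without the recruited rule, 0 and 0 (0 and 0), where edgeR gave 877 of 11014 genes an unadjusted p under 0.05; no other tool was run on those cells. In those fits the list medians were 1.49, 1.45 and 0.53 (lipid-associated), 0.86 and 0.38 (lysosome, resident and recruited rules), -1.13, -2.22 and -0.36 (recruited), and -0.11 (resident, resident rule). Filling gaps gave -1.30 for the recruited list. Leave-one-out medians ran from 0.93 to 1.11 (lipid-associated), 0.64 to 0.84 (lysosome), -1.69 to -1.25 (recruited) and -2.002 to -0.99 (resident). Asking for 1 recruited gene more turned that share's difference from 4.47 to -9.54 points.

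Single genes reversed in 7 of 1753 repeats over 72 genes, and 1183 kept their call. Without cells of other types Rspo1 was at 0.058, Prss23 at 8.21 and Plac9a at 1.72; without cells meeting the recruited rule H2-DMa was at 0.43, H2-DMb2 at 0.47, Junb at 0.078 and Hif1a at 0.11 on the log2 scale. The cause was not tested. No paired analysis was possible because the labels give the hashtags no replicate numbers.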
